A study of Mus musculus with 18 samples.

Results

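CTCF binding was compared between mouse embryonic stem cells without the TET enzymes and cells without the TET and the DNMT enzymes, so that the loss of DNA methyltransferases was seen on a background in which TET activity was already absent. The TKO line lacks Tet1, Tet2 and Tet3, and the SKO line lacks Tet1, Tet2, Tet3, Dnmt1, Dnmt3a and Dnmt3b. Chromatin immunoprecipitation and sequencing (ChIP-seq) of CTCF gave 1 peak list per genotype, and peaks that shared an interval were joined into 1 region. A TKO region that overlapped an SKO region by at least 1 bp was counted as shared. A TKO region without an SKO partner is called lost and an SKO region without a TKO partner is called gained, which are words for membership of the lists. These rules gave 62238 TKO and 59372 SKO regions, out of 192685 regions in the lists of all 3 genotypes, of which wild-type (WT) cells held 71075.

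The 2 genotypes account for 12 of the 18 samples, with 3 ChIP and 3 input samples each. The cells were cultured with irradiated mouse embryonic fibroblasts as feeders, so feeder chromatin may be present in small amounts. Each genotype is a line, and the labels say neither whether it is 1 clone nor whether the replicates were separate cultures. Replicates were pooled before peak calling, so no spread between replicates exists here, no test between genotypes was possible, and every interval given covers counting error only. The stem cell identity of the lines cannot be checked with expression markers, since only CTCF positions were measured.

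CTCF is a zinc finger protein that binds a long, G-rich motif and, together with cohesin, anchors chromatin loops and insulates genes from neighbouring enhancers. Methylation of a CpG within the motif is known to weaken binding at a subset of sites, of which the imprinting control region of H19 is the textbook case. DNMT1 copies methylation onto new DNA strands, DNMT3A and DNMT3B place it on unmethylated DNA, and the TET enzymes oxidise it as a step towards its removal. Cells with only the TET enzymes deleted can still place and copy methylation, whereas cells with all 6 enzymes deleted can do neither.

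Sequence was read at promoters, where RefSeq (GRCm38.p6) supplies 300 bases around each start, to show examples of such sites. The following 6 stretches, chosen after their values were seen, are those of highest fold in each class with the core CTCF motif within 50 bp of the summit. They are written in the direction of the motif, with the motif in capitals, here CC, any 3 bases and then AGGNGGC. The first 2 are lost, the next 2 gained and the last 2 shared. Most promoter regions had no such motif near the summit. It was there in 15 of 243 lost regions with the summit in a promoter window (6.17%). For gained regions the count was 6 of 209 (2.87%), and for shared regions 239 of 1377 (17.4%).

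Slain2, chr5:72914333-72914384, plus strand: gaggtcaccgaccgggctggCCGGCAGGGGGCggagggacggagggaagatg

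Gm42111, chr5:92063369-92063420, plus strand: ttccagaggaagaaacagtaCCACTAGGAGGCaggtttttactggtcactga

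Bhlhb9, chrX:135885809-135885860, plus strand: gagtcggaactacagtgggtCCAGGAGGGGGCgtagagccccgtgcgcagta

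Ddx51, chr5:110653262-110653313, plus strand: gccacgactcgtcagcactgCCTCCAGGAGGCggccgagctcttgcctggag

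Fitm2, chr2:163472674-163472725, minus strand: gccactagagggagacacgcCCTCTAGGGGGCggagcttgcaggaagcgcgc

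Adprhl2, chr4:126321728-126321779, minus strand: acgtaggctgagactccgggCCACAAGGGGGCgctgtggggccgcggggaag

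The lost Slain2 region had a fold enrichment of 10.2 in TKO from a ChIP pileup of 30 fragments over a background of 2.03, and a fold of 6.38 in WT. Its stretch holds 5 CpG, 2 of them in the motif and the base that follows it. Gm42111, with no CpG in the stretch, reached a fold of 7.27 in TKO and had no WT region. The gained Bhlhb9 and Ddx51 regions reached folds of 7.51 and 4.74 in SKO, had no WT region, and each has 1 CpG at the motif. Of the shared pair, Fitm2, whose protein acts in lipid droplet formation, had a pileup of 415 in TKO and 277 in SKO, and Adprhl2 had 434 and 412.

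A fold is the pileup plus 1 divided by the local background plus 1, at the summit. The depth of the pooled libraries differed, since the lowest, genome-wide background was 1.82 fragments over a position in TKO and 1.37 in SKO. This ratio of 0.752 is −0.41 on the log2 scale. The median region had a fold of 9.84 in TKO and 10.5 in SKO, and a pileup of 41.0 and 35.0. The weakest region that passed at the lowest background had a pileup of 8 in TKO and 7 in SKO.

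Most CTCF regions stood in both lists. Of the TKO regions, 8996 (14.5%, 95% Wilson interval 14.2 to 14.7) were lost in SKO, and of the SKO regions, 6165 (10.4%, 10.1 to 10.6) were gained. The other 53242 TKO regions met 53207 SKO regions, and 52832 of these pairs were one-to-one. Summits of shared pairs lay a median of 11 bp apart, and 854 pairs (1.60%) had summits over 100 bp apart. Just outside the rule, 313 lost regions had an SKO region within 500 bp, and just inside it, 10 shared TKO regions overlapped their strongest partner by under 50 bp. Their median TKO folds were 4.43 and 3.47.

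Lost and gained regions were weak. The median lost region had a fold of 4.97 and a pileup of 17.0 in TKO, against 11 and 49.0 for shared TKO regions. The median gained region had a fold of 5.07 and a pileup of 13 in SKO, against 11.4 and 39.0 for shared SKO regions. Lost and gained regions were also narrower, with median widths of 251 and 247 bp against 381 and 387 bp. When each list was divided into 10 equal bins by −log10 q, 62.9% of the weakest TKO bin was lost and 49.9% of the weakest SKO bin was gained. The share fell in every step up to the eighth bin in TKO, where 2 of 6224 regions were lost, and no SKO region of the 3 strongest bins was gained (upper bound 0.0647% in each). Above the median −log10 q, 54 of 31119 TKO regions were lost (0.174%) and 20 of 29682 SKO regions were gained (0.0674%).

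**Figure D1:**
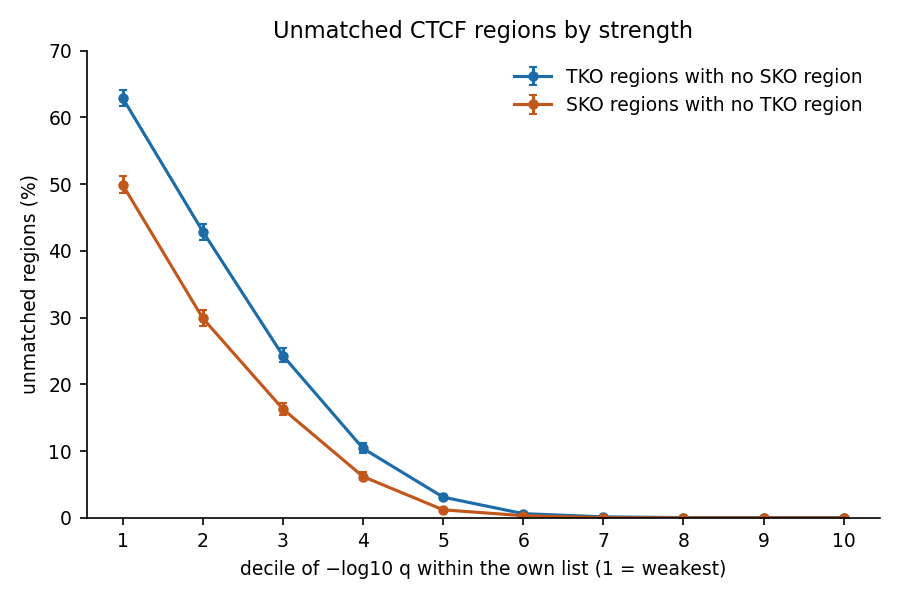
The share of regions without a partner in the other list (vertical axis, %) is plotted for 10 bins of −log10 q within each list, from weakest to strongest; bars are 95% Wilson intervals. Both curves start near 62.9% (TKO) and 49.9% (SKO) and lie under 1% from the sixth bin on.

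In the 4 strongest TKO bins 15 regions were lost. Of these, 14 had a fold under 3 on a local background between 296 and 2412 fragments: 10 on the unplaced contig JH584304, 3 at the start of chromosome 9 and 1 at the start of chromosome 12. The 1 exception, near Wdr19, is described below. As a description of depth, the TKO pileups and backgrounds were scaled to the SKO genome-wide background. Of the 62238 TKO regions, 473 would then miss the SKO limit, of which 367 (77.6%) were lost, while 8629 of the 61765 that would pass (14.0%) were lost. The scaling leaves out counting noise near the limit, so the part of depth in the lost regions was not tested. In the other direction the scaling raises pileup and background together, so hardly any SKO region could miss the limit, and none did.

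The lost regions of highest fold were modest peaks that WT cells had as well. The strongest, chr5:65184536-65184937, lies 15.0 kb from Wdr19, which encodes a subunit of intraflagellar transport. Its pileup was 47 in TKO and 43 in WT, its TKO fold was 17.0, and no SKO region was called there. The region 17.9 kb from Dclk3, a kinase gene, had pileups of 42 in TKO and 26 in WT. The region 4.11 kb from Gfi1b, a transcriptional repressor of blood development, had 41 in TKO and 40 in WT. It was 233 bp wide, and 26 of 4577 shared regions of like pileup were as narrow. The region inside Dupd1, a phosphatase gene, had 40 in TKO and 56 in WT. The region 9.74 kb from Il9r, the interleukin 9 receptor gene, had 38 in TKO and 36 in WT. The region 30.0 kb from Arhgap12 had 45 in TKO and 47 in WT. All 6 had a WT fold of at least 9.24, and their TKO folds ran from 13.5 to 17.0. At SKO depth the same TKO peaks would have pileups from 28.6 to 35.4.

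The gained regions of highest fold were of like size, and 5 of 6 had a WT region. The strongest, chr4:88760680-88760896, lies inside Gm13283, a predicted gene of the type I interferon cluster. Its SKO fold was 18.6 from a pileup of 43, and WT cells had a pileup of 45 there, while no TKO region was called. It is 217 bp wide, and of 4192 shared SKO regions of like pileup only 2 were as narrow. The region inside Negr1, a neuronal adhesion gene, had a pileup of 36 in SKO and 29 in WT. The region 25.5 kb from Apold1 had 34 in SKO and 35 in WT. The region inside N4bp2l2 had 33 in SKO and 42 in WT, and the region 70.5 kb from Map2, a neuronal microtubule gene, had 32 in SKO and 25 in WT. The sixth, chr10:102867011-102867286, had a pileup of 33 in SKO and no WT region, and no protein-coding gene lies within 100 kb. SKO folds of the 6 ran from 13.9 to 18.6. The regions near Apold1 and Map2 were narrow as well, at 219 and 217 bp. Of shared regions of like pileup, 11 of 5090 and 13 of 5449 were as narrow. For the rest of the 6 that share was 5.89% or more.

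WT cells were not used to choose the members, but the comparison with shared regions is not independent of the rule. A shared region passed the limit in both lists and a lost or gained region in a single list. Binning by strength in a single list does not even this out, and its part in the shares below was not tested. A WT region was present at 62.7% of lost and 57.7% of gained regions, against 97.6% of shared regions of either list. Because shared regions were stronger, the same was counted within bins of −log10 q. Lost regions had a WT partner less often than shared TKO regions in 6 of 6 bins, and gained regions less often than shared SKO regions in 5 of 5 bins. Lost regions with a WT partner had a median WT fold of 5.81, gained ones 5.86, and shared ones 12.7. Both classes therefore hold regions seen in WT and in 1 of the other genotypes, alongside regions seen in a single list.

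**Figure D2:**
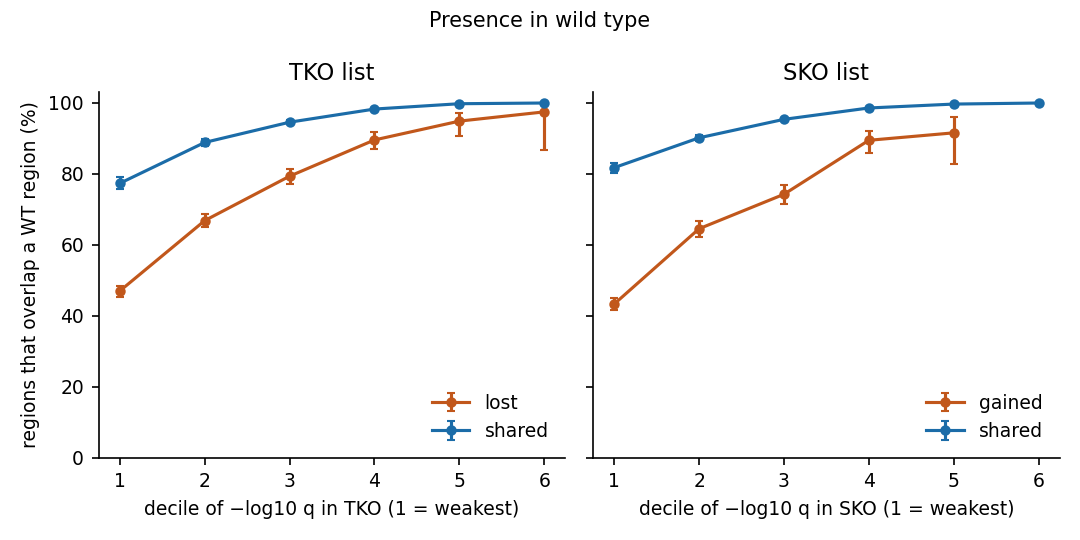
The share of regions that overlap a WT region (vertical axis, %) is plotted by bin of −log10 q within the TKO list (left) and the SKO list (right), for bins with enough unmatched regions; bars are 95% Wilson intervals. Lost and gained regions lie below shared regions in 6 of 6 and 5 of 5 bins.

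At shared regions the level of CTCF moved little as a whole. The median log2 ratio of SKO to TKO fold was 0.05, a ratio of 1.04, with an SD of 0.54 over 53242 pairs. Of these pairs 90% lay between −0.83 and 0.93. The pileup fell to a median ratio of 0.821, or −0.28 on the log2 scale, which is 0.13 above the −0.41 of the genome-wide background. All shifts below are differences on the log2 scale, centred on these medians. A pair is called at a centred shift of 1 or more, a 2-fold difference.

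By fold, 1728 pairs (3.25%) were at least 2-fold higher in SKO and 1658 (3.11%) at least 2-fold lower. Without centring the split was 2122 higher and 1326 lower. The pileup alone gave fewer calls and a split the other way, with 403 (0.757%) higher and 582 (1.09%) lower. Calls by fold had unequal local backgrounds: the median was 5.04 in TKO and 1.70 in SKO for pairs called higher, and 2.35 and 3.66 for pairs called lower. The pileup shift had the same sign as the fold shift in 92.1% of pairs called higher and 93.8% of pairs called lower. A rule chosen after the data were seen asked for both fold and pileup past 2-fold, and it left 214 higher (0.402%) and 274 lower (0.515%). Among 3002 pairs at the lowest background in both lists, also chosen afterwards, the SD of the fold shift was 0.43, with 31 calls higher and 37 lower.

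**Figure D3:**
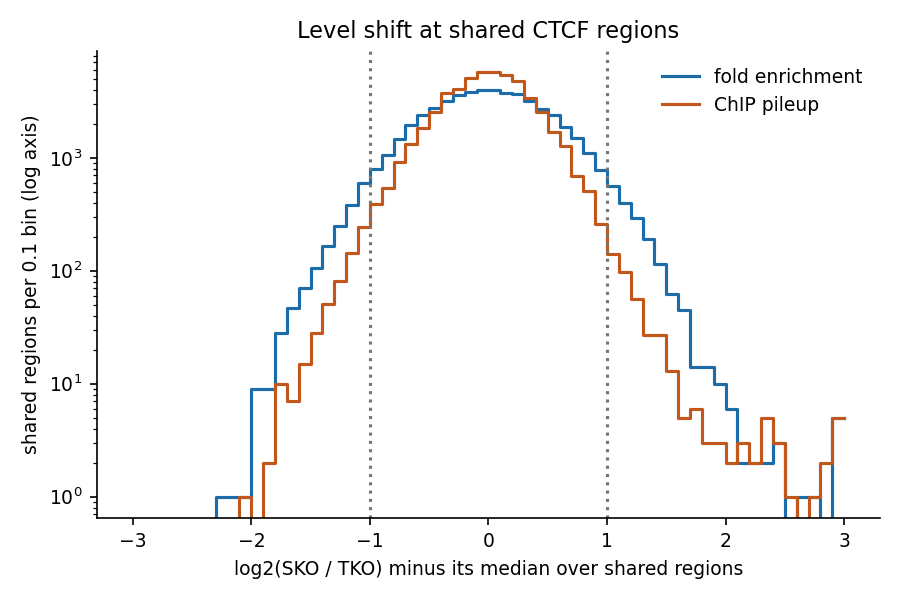
The number of shared regions per 0.1 step (vertical log axis) is plotted against the centred log2 ratio of SKO to TKO, for fold enrichment and for ChIP pileup; dotted lines mark 2-fold, and the last step also holds values above 3. The pileup curve (SD 0.40) is narrower than the fold curve (SD 0.54).

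The shift also depended on which list set the strength. Among the weakest bin of the TKO list, the shared regions had a median centred pileup shift of 0.28, and among the weakest bin of the SKO list it was −0.38. Such values carry the choice of list, since a weak region counts as shared only where the other list passed its limit too. In the strongest bin the medians were −0.02 by TKO strength and 0.14 by SKO strength.

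The 4 rises given first passed by both measures and set SKO apart from TKO and from WT. Beside Snx11, a sorting nexin gene, at chr11:96778152-96778657, WT cells had a pileup of 48, TKO cells 39 and SKO cells 211. The centred pileup shift was 2.72 (95% counting interval 2.22 to 3.25), on backgrounds of 4.72 and 4.99. Near Ccdc65, which encodes a protein of the ciliary regulator complex, pileups were 25 in WT, 20 in TKO and 95 in SKO, with a centred pileup shift of 2.53. Inside Letm2, a gene of the mitochondrial inner membrane family, they were 29, 16 and 60, with a shift of 2.19. Beside Grm2, a metabotropic glutamate receptor gene, they were 64, 72 and 214, with a shift of 1.86. In these 4 places WT and TKO were both low and SKO was high.

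A second kind of rise was low in TKO alone. Inside Cd247, which encodes the zeta chain of the T cell receptor complex, WT cells had a pileup of 142, TKO cells 35 and SKO cells 108. Near Il21, a cytokine gene, WT cells had 107, TKO cells 29 and SKO cells 78. Their centred pileup shifts were 1.91 and 1.71, with lower 95% counting bounds of 1.35 and 1.08.

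The pairs of largest fold shift included 3 in which the background moved more than the pileup. Near Gpx6, a glutathione peroxidase gene, the fold was 6.02 in TKO and 40.9 in SKO, while the pileup was 60 and 112 and the background 9.13 and 1.76. Near Tacc1, a gene of centrosomal proteins, the centred fold shift was 2.11 and the pileup shift 1.17, on backgrounds of 6.30 and 2.00. Near Mepe, a bone matrix gene, the fold shift was 1.94 and the pileup shift 0.57 (0.12 to 1.03), on backgrounds of 8.82 and 2.00.

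The largest falls were led by Ncam1, the neural cell adhesion gene. At chr9:49715074-49715500 inside it, WT cells had a pileup of 66, TKO cells 80 and SKO cells 21, and the centred pileup shift was −1.65 (−2.41 to −0.94). Inside Prss55, a serine protease gene, pileups were 59, 61 and 21, with a shift of −1.25. A region of chromosome 11 at 64251354 to 64251727, without a gene within 100 kb, had 68, 50 and 17, with a shift of −1.27. In all 3, SKO had the lowest pileup and the lowest fold. These pileups are not scaled for depth, and the genome-wide background was 1.76 in WT and 1.37 in SKO. Folds in WT, TKO and SKO were 9.46, 28.0 and 6.01 at Ncam1, and 12.1, 22.0 and 6.01 at Prss55. At the chromosome 11 region they were 15.6, 18.1 and 5.41. At Ncam1 the WT fold was thus nearer to that of SKO than to that of TKO. At Dock5, Srebf1 and Erp44 the fold shifts were −2.13, −2.00 and −1.90, and the pileup shifts only −0.54, −0.44 and −0.45. Backgrounds at those genes were 7.99, 8.65 and 5.99 in SKO against 2.74, 3.13 and 2.20 in TKO. For Erp44, a chaperone gene of the secretory pathway, the counting interval of the pileup shift reached 0.06.

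Falls past 2-fold by both measures were also found at other genes. Near Rflna the pileup went from 37 in WT and 51 in TKO to 13 in SKO. Inside Nnmt, which encodes a nicotinamide methyltransferase, it was 26, 40 and 12. Near Rbm19, an RNA-binding protein gene, it was 62, 70 and 21. Inside Grik4, a kainate receptor gene, it was 50, 43 and 12, and near Foxo1, a forkhead transcription factor gene, 23, 38 and 12. SKO was again the lowest of the 3 genotypes by pileup and by fold at each of these 5 regions, with centred pileup shifts between −1.69 and −1.38. The TKO fold also stood above the WT fold at Rflna (18.5 against 10.6) and Nnmt (14.5 against 9.68). The same held at Rbm19 (15.7 against 10.9) and Foxo1 (13.8 against 8.71), but not at Grik4 (13.8 against 14.0).

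The promoters that the rule on strength names show the sequence under such regions, here with CpG in capitals and in the direction of the gene. The stretch lies around the summit and ends at most 30 bases past the start. Rbm15b and Dcun1d4 were lost, Gm13283 and Apba2 were gained, and Sik3 and Dennd4c were the shared promoters of highest and lowest centred fold shift.

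Rbm15b, chr9:106887244-106887325, minus strand: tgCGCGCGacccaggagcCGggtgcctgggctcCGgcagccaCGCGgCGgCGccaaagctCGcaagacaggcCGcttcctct

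Dcun1d4, chr5:73490809-73490909, plus strand: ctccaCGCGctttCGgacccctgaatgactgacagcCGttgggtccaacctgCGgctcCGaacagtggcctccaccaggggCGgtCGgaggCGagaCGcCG

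Gm13283, chr4:88760727-88760803, plus strand: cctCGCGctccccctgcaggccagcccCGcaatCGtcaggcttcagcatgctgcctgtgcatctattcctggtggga

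Apba2, chr7:64501663-64501735, plus strand: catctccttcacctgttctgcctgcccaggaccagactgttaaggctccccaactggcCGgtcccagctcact

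Sik3, chr9:46012570-46012621, plus strand: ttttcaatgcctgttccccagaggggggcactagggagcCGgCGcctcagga

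Dennd4c, chr4:86748335-86748435, plus strand: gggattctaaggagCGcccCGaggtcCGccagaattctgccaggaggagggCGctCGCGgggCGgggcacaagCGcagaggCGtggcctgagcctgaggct

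The lost stretches at Rbm15b and Dcun1d4 hold 11 CpG each, with TKO folds of 11.4 and 11.1 and WT folds of 12.4 and 8.41. The gained stretches hold 4 CpG at Gm13283 and 1 at Apba2, whose SKO fold was 9.29 and WT fold 7.98. At Dennd4c the pileup was 67 in TKO and 23 in SKO, a centred pileup shift of −1.26. At Sik3, which encodes a salt-inducible kinase, the pileup was 86 and 99 while the background was 7.56 and 2.00. None of the 6 windows holds the core motif, as spelled above, on either strand. That spelling stood in 23.8% of windows of shared TKO regions, so a window without it may still hold another form of the CTCF motif.

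Over all promoters, the core motif was rarer under unmatched regions than under shared regions as a whole. It stood in 3.43% of the 32817 promoter windows, counting both strands. With the summit inside the window, it stood in 9.19% of 272 windows of lost regions (6.30 to 13.2) and in 23.8% of 1512 windows of shared TKO regions (21.7 to 26.0). For gained regions it stood in 9.54% of 241 windows (6.44 to 13.9), and for shared SKO regions in 23.5% of 1526. Shared regions of the 3 weakest bins lay between, with 13.6% (9.98 to 18.2) in TKO and 12.9% (9.59 to 17.0) in SKO, and their intervals overlap those of the lost and gained windows. The version followed by a G, which holds a CpG at its end and is a subset of the first, stood in 4.78% of lost, 7.05% of gained and 15.6% of shared TKO windows, and in 8.30% and 7.40% of the windows of weak shared TKO and SKO regions. The version with G after the opening CC, likewise a subset, stood in 4.41% of lost, 3.73% of gained and 7.80% of shared TKO windows, and in 3.77% and 5.14% of the weak shared windows of TKO and SKO. Intervals of lost and gained windows overlapped those of the weak shared windows for both versions. The median window held 21 CpG for lost and for gained regions, 18 for shared regions, 20 for weak shared regions and 7 over all windows.

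Gained regions lay near gene ends more often than shared ones in the list as a whole. A summit within 1 kb of a boundary of a protein-coding gene was found for 12.1% of gained (747 of 6165) and 9.08% of shared SKO regions (8.84 to 9.33). The corresponding shares were 9.63% of lost (9.03 to 10.3) and 9.06% of shared TKO regions. In the weakest SKO bin the share was 16.2% of gained (14.9 to 17.6) and 13.1% of shared regions (12.0 to 14.4). The order did not hold in every bin: gained regions were above shared ones in 3 of 5 bins, and lost regions in 2 of 6.

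The genes of the deleted enzymes were read first among the gene lists, each list taking regions with the summit inside a gene or within 10 kb. A deleted gene's own CTCF regions do not check the deletion, since the labels do not place it. Dnmt1 had 6 TKO regions, all shared, with the strongest at folds of 35.4 in TKO and 26.4 in SKO. Dnmt3a had 5 shared regions and 1 gained region of fold 7.60, where WT had 8.35. Dnmt3b had 5 TKO regions, of which 3 were lost at folds of 4.78, 6.03 and 5.27, and its strongest region was shared with 19.4 in TKO and 27.2 in SKO. Of the TET genes, Tet1 lost 2 of 8 regions, Tet2 2 of 4 and Tet3 1 of 2, with TKO folds of the 5 lost regions between 3.36 and 5.67. Both regions at Ctcf itself were shared.

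Over the list of DNA methylation enzymes and readers, 10 of 54 TKO regions were lost and 5 of 49 SKO regions gained. These are 18.5% (10.4 to 30.8) and 10.2% (4.44 to 21.8), beside 14.5% and 10.4% over all regions. By fold 4 of the 44 shared pairs were called higher and 2 lower, beside 3.25% and 3.11% over all pairs. By pileup none was called in either direction, beside 0.757% and 1.09%.

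Among germline genes that DNA methylation is known to silence, 15 of 57 TKO regions were lost (26.3%, 16.6 to 39.0) and 12 of 54 SKO regions were gained (22.2%, 13.2 to 34.9), beside 14.5% and 10.4% over all regions. The list also holds Zfp42, a pluripotency gene that is in the pluripotency list as well, so its regions count in both. These shares depended on the setting: they were 20.5% and 18.6% for gene bodies alone, and 18.0% and 14.8% with 50 kb either side. With both lists at a −log10 q of at least 5 they were 38.5% (20 of 52) and 22.0% (9 of 41). The regions of this list were weak, with 47.4% of the TKO regions in the 3 weakest bins against 30.0% of all regions, and the part of this weakness in the shares was not tested. Tex15, a meiosis gene, lost 4 of 5 regions, with TKO folds of 4.65, 7.30, 6.75 and 2.55, and all 4 had a WT region. It gained 1 region of fold 4.90 without a WT region. At its shared region the fold was 20.8 in TKO and 9.20 in SKO, while the pileup was 77 and 48 on backgrounds of 2.74 and 4.33, a centred pileup shift of −0.40. Dazl, an RNA-binding protein gene of germ cells, had 1 lost region of fold 4.61 and gained regions of 5.43 and 3.38. Mael, a gene of the transposon-silencing pathway of the germline, had no TKO region and gained regions of 6.76 and 5.25. Tex14, which encodes a protein of the bridges between germ cells, lost 1 of 15 regions, at a fold of 9.31, and gained 3 regions of folds from 2.80 to 5.00. Of the list's 42 shared pairs, none was called higher by fold and 3 were called lower, beside 3.25% and 3.11% over all pairs.

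Among pluripotency genes 15 of 67 TKO regions were lost (22.4%, 14.1 to 33.7) and 6 of 59 SKO regions gained. Over all regions 14.5% of TKO regions were lost and 10.4% of SKO regions gained. The lost share of this list depended on the setting. Within gene bodies alone 12 of 32 were lost (37.5%), and with 50 kb either side 34 of 178. At a −log10 q of at least 5 it was 11 of 62 (17.7%), and with summits within 100 bp 16 of 67 (23.9%). Of the list's TKO regions 34.3% were in the 3 weakest bins, against 30.0% of all regions. Esrrb, an orphan nuclear receptor gene of naive pluripotency, lost 5 of 8 regions, at TKO folds between 2.93 and 5.22, and gained 2, at 3.82 and 3.43. Sall4 lost 2 of 6 regions, and Nr5a2 lost 2 of 4 and gained 1. Pou5f1, which encodes OCT4, lost 1 of 5 regions, of fold 4.83, and gained 1 of 4.39. The 52 shared pairs had a median centred fold shift of 0.05 and a median pileup shift of −0.01.

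The control regions of imprinted genes carry methylation on 1 parental allele. These genes lost 11 of 105 TKO regions (10.5%) and gained 9 of 102 SKO regions (8.82%), beside 14.5% and 10.4% over all regions. The H19 list entry had 1 TKO region, of fold 2.69 and pileup 11, which was lost, where WT had a fold of 15.8. Snrpn lost 2 of 7 regions, of folds 4.06 and 4.70, and gained 2, of 4.22 and 6.76. Gnas and Meg3 lost 1 and gained 1 each. The 94 shared pairs had a median centred fold shift of 0.06, with 1 called higher and 1 lower.

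The clustered protocadherins, a family of neuronal adhesion genes whose promoters are known CTCF sites, lost none of 55 TKO regions (upper bound 6.53%) and gained 4 of 58. Only 9.09% of their TKO regions were in the 3 weakest bins. The 3 gained regions that Pcdha1 and its neighbours hold had SKO folds of 5.49, 4.65 and 3.80. The Hox genes lost 4 of 31 regions (12.9%) and gained 3 of 30 (10.0%). Over all regions 14.5% of TKO regions were lost and 10.4% of SKO regions gained.

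Among lists of chromatin regulators, the intervals of the lost share overlapped each other. Over all regions 14.5% of TKO regions were lost and 10.4% of SKO regions gained. Chromosome architecture factors had 42.0% of their TKO regions in the 3 weakest bins, against 30.0% of all regions. They lost 14 of 69 regions (20.3%, 12.5 to 31.2) and gained 4 of 60 (6.67%). Among them Yy1, a transcription factor gene, lost 2 of 3 regions, at folds of 8.12 and 4.52, and gained 1. NuRD subunits and partners lost 16 of 88 (18.2%, 11.5 to 27.5) and gained 10 of 82 (12.2%). Chd4, the NuRD ATPase gene, gained 2 regions, of folds 2.83 and 6.63, and lost none. Silencers of endogenous retroviruses lost 8 of 67 (11.9%, 6.18 to 21.8) and gained 1 of 59 (1.69%, 0.300 to 9.00), the latter interval below the 10.4% over all SKO regions. The gained share was 6.52% (9 of 138) with genes extended by 50 kb. Among them Trim28, the KAP1 corepressor gene, lost 2 of 4 regions, of folds 9.19 and 2.65, neither with a WT region. Zinc finger protein genes, the largest list, lost 136 of 795 (17.1%, 14.6 to 19.9) and gained 88 of 748 (11.8%, 9.65 to 14.3).

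At the X inactivation centre 1 of 16 TKO regions was lost, of fold 2.48, and none of 15 SKO regions was gained. With both lists at a −log10 q of at least 5, 2 of 13 TKO regions were lost and 2 of 13 SKO regions gained (15.4% each). The 15 shared pairs of the X inactivation centre had a median centred fold shift of 0.30 and pileup shift of 0.38. No pair was past 2-fold by fold or by pileup. The pileup shift was 0.23 from 100 to 110 Mb of chromosome X, around the locus, and 0.16 over the whole chromosome. Of the list's TKO regions 43.8% were in the 3 weakest bins, against 30.0% of all regions. The part of this weakness in the shifts was not tested. Genes of the 2-cell-like state had 3 TKO regions, none lost, and 1 gained region near Tcstv1 with a fold of 10.1. Early lineage genes lost 3 of 31 (9.68%) and gained 2 of 30 (6.67%). Feeder fibroblast markers lost 4 of 39 (10.3%) and gained 3 of 38 (7.89%). Over all regions these shares were 14.5% and 10.4%.

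**Figure D4:**
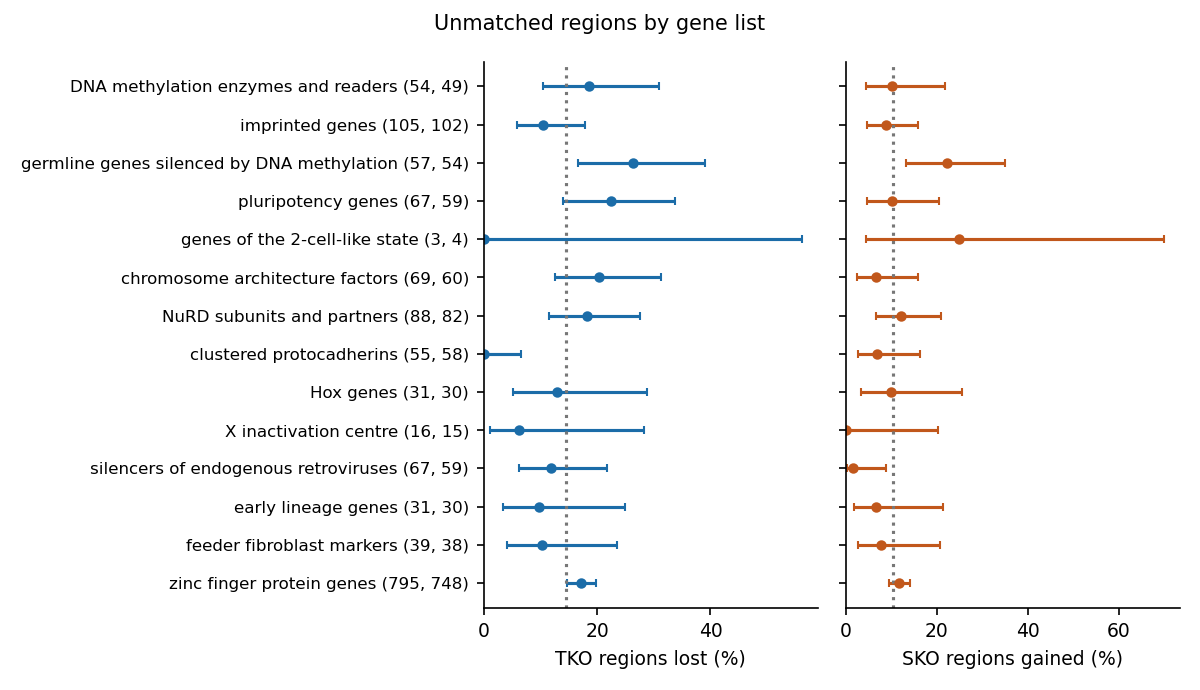
For each gene list, with its numbers of TKO and SKO regions in brackets, the share of TKO regions lost (left, %) and of SKO regions gained (right, %) is plotted with its 95% Wilson interval; dotted lines mark 14.5% and 10.4% over all regions. Germline genes stand at 26.3% and 22.2%, and clustered protocadherins at 0% lost.

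Lost regions were spread over many genes. At least 1 lost region was found at 5710 protein-coding genes, out of 17064 with a region in either list, and at least 1 gained region at 4511. Cdh13, a cadherin gene with 40 TKO regions, lost 10. Dlgap1, a gene of the postsynaptic scaffold, lost 8 of 26. Anks1, Camkmt, Tmem131 and Tmem132d tied at 7 lost regions, of 15, 15, 16 and 35 TKO regions. Over all regions 14.5% of TKO regions were lost and 10.4% of SKO regions gained. Most gained regions, 6 each, were found at Gm13276, at the overlapping predicted genes Gm37013, Gm38666 and Gm38667 that span protocadherins, and at Magi2, a scaffold gene with 16 SKO regions. Gm13276 had 11 SKO regions. The overlapping Gm37013, Gm38666 and Gm38667 had 86, 83 and 82 SKO regions and also held 2 lost regions each. Astn2, Bcas3 and Cacna2d2 had 5 gained regions each, of 10, 13 and 12 SKO regions. These genes span 130 kb or more, except Gm13276, which spans 1.46 kb within the interferon cluster.

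That cluster was looked at further after its values were seen. Between 88754868 and 88808380 on chromosome 4 the lists held 10 shared TKO regions, 2 of which met the same SKO region, 8 gained regions and no lost region. The centred pileup shift was above 0 in all 10 pairs. The strongest shared region by SKO fold, chr4:88776668-88777110, had folds of 56.7 in WT, 45.6 in TKO and 70.2 in SKO, with a centred pileup shift of 0.58. Of the 8 gained regions, the one in Gm13283 had a fold of 18.6 and the other 7 had folds between 3.31 and 4.96. A WT region was present at 4 of the 8. The genes there are near-identical copies, so reads may have been shared among them by the alignment, and these values are uncertain.

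Chromosomes differed modestly. The share of lost regions ran from 12.3% on chromosome 10 to 17.9% on chromosome 18 among the autosomes and X, and that of gained regions from 7.25% on chromosome 19 to 14.8% on X. The median centred pileup shift was −0.15 on chromosome 19 and 0.16 on X, and between −0.06 and 0.08 on the other autosomes. The fold shift stayed between −0.05 and 0.04 on all of these. The background ratio was −0.56 on chromosome 19 and −0.41 on X, beside −0.43 over all pairs.

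**Figure D5:**
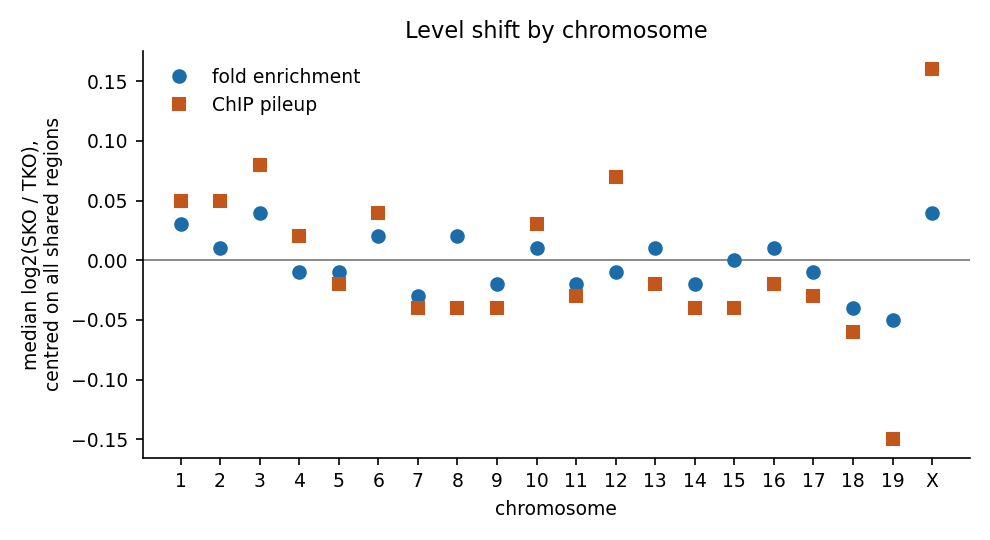
The median centred log2 ratio of SKO to TKO over shared regions (vertical axis) is plotted per chromosome for fold enrichment and ChIP pileup. Pileup ranges from −0.15 on chromosome 19 to 0.16 on X, and fold stays between −0.05 and 0.04.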

How the data were processed

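Per the labels, the replicates of each genotype were pooled by the authors before peaks were called, ChIP against input. Tools listed in the submitters' processing notes are MACS2 2.1.2, Bowtie2 2.3.4, deepTools 3.5.0, bedtools 2.25.0, FastQC 0.11.7 and SAMtools 1.9, with mm10 as the build. The commands run are not given in the sources used. Each deposited peak carries a fold enrichment (a ratio), −log10 p, −log10 q, an integer score and a summit offset, all as the authors' peak caller wrote them. The lowest −log10 q was 1.30 in TKO and 1.31 in SKO.

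Rows with the same interval were joined and kept their strongest summit. Overlaps were computed in Python 3.11.15 (numpy 2.4.6, pandas 2.3.3, scipy 1.17.1) and gave the same counts as bedtools 2.31.1. A shared TKO region was compared with its strongest SKO partner. Pileup and background were solved from fold and −log10 p under a Poisson model, with 1 added to both terms of the fold only. This form was picked because it returns whole pileups (relative tolerance 1e-04) for 100% of rows in each list. The code was tested on simulated data. Read totals of single samples were not used.

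Members, gene lists and rules were chosen with earlier results of these data known. Gene positions were those of RefSeq on GRCm38.p6 (49997 genes, 21900 protein-coding, every list symbol matched), the assembly that mm10 uses. Regions take the name of the protein-coding gene around the summit, or of the nearest one up to 100 kb away. Named are the 6 lost and 6 gained regions of highest fold on the autosomes and X, the 6 shared pairs of highest and of lowest centred shift with both folds at least 5, the 4 genes with most lost and most gained regions, at most 4 genes per list, those with most changes, and the deleted enzymes, H19 and Ctcf. The pairs past 2-fold by both measures, the promoters with a motif at the summit and the interferon cluster were chosen after their values were seen. The text gives only some of the genes that the lists take, and 1 gene that the rule names is not reported here. Alternatives covered the overlap rule, the q limit, the level measure, the pairs used, the centring and the gene windows.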

Additional observations from a re-analysis of the deposited data

How the results depend on the processing

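Other settings were tried, 2 of them added after the data were seen. Of the recomputed values, 146 stayed within the interval, the SD or 1.5 times of the reported value, and 46 moved further. Most of these values are counts or shares, which cannot change sign. By pileup the order of calls higher and lower was the reverse of the 1728 and 1658 by fold. Lost and gained shares were 15.8% and 11.7% with summits within 100 bp, 14.0% and 9.85% with regions within 500 bp counted as shared, 13.5% and 8.49% when both lists began at a −log10 q of 5, and 10.9% and 7.04% (3877 gained) with only the counted list so limited. Calls higher and lower were 403 and 582 by pileup, 3366 and 3238 with nothing added to pileup and background, 214 and 274 by fold and pileup together, and 31 and 37 at the lowest background in both lists. With −log10 q of at least 5, a WT region was present at 73.7% of lost, 69.4% of gained and 98.6% of shared regions of either list, and with summits within 100 bp at 64.5%, 60.8%, 97.8% (TKO) and 97.7% (SKO). Near gene ends lay 8.71% of lost, 8.82% of shared TKO, 9.82% of gained and 8.83% of shared SKO regions at a −log10 q of at least 5. Those shares were 16.7%, 17.2%, 19.8% and 17.2% within 2.5 kb, and 14.2%, 14.3%, 16.5% and 14.3% with all gene types. Gained regions were above shared SKO regions in 5 of 5 settings, and lost regions above shared TKO regions in 2 of 5. Among gene lists, Hox genes gained 0% and early lineage genes lost 0% at a −log10 q of at least 5, protocadherins lost 7.27% with summits within 100 bp, and with gene bodies alone pluripotency genes lost 37.5% (12 of 32), the X inactivation centre 0% and early lineage genes 0%. With any overlap of region and promoter window, the motif stood in 16.6% of shared TKO, 9.75% of weak shared TKO and 16.5% of shared SKO windows. The cause of these changes was not tested. No paired analysis was possible because the replicates were pooled before peaks were called, and for the same reason no replicate could be left out. At the lowest background the weakest listed region had a pileup of 8 in TKO and 7 in SKO, so small numbers of fragments stand behind weak regions.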

Other observations

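Shifts were also read in 268 windows of 10 Mb with at least 30 shared regions, a size chosen after the data were seen. The median centred pileup shift was within 0.2 of 0 in 222 windows, at or below −0.2 in 10 and at or above 0.2 in 36. The lowest was the first window of chromosome 18, at −0.53, where 69 of 79 shared pairs were below 0, 26 of 105 TKO regions were lost (24.8%) and 2 of 81 SKO regions were gained (2.47%). The first window of chromosome 16 followed at −0.39, with 21.7% lost and 3.70% gained. The background ratio was −0.60 and −0.57 in these windows, beside −0.43 over all pairs. The highest were the window from 90 to 100 Mb of chromosome 17, at 0.42 over 39 pairs, and that from 140 to 150 Mb of chromosome 1, at 0.37, where 14 of 53 SKO regions were gained (26.4%).

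The spacing of unmatched regions along the chromosome is given as a description. Of the lost regions 70.3% had a shared region on both sides before the next lost one, and of the gained regions 77.5%. The longest runs of consecutive lost regions held 6, at chr14:11371432-11534813 and at chr19:23059425-23134392. The longest runs of gained regions held 5, one among vomeronasal receptor genes of chromosome 17 (chr17:20461427-21115457) and one inside Astn2 (chr4:66207670-66401421), a neuronal gene whose 5 TKO regions were all shared. On the unplaced contig JH584304, 12 of 37 TKO regions were lost, none of 25 SKO regions was gained, and the median background was 428 in TKO and 519 in SKO.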
